A study of Mus musculus with 12 samples.

Results

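Histone-modifying enzymes were followed in mouse leukemic cells that lacked Tet2 (Tet2 KO) or were wild type (WT), before and after a block of transcription. Members were chosen by symbol, with earlier results of these data known: names that start with Kdm, Kmt or Kat and a digit, Setd followed by a digit, a or b, numbered Hdac and Sirt genes, and Ezh1, Ezh2, Nsd1, Dot1l, Ep300 and Crebbp. The table of 24589 rows held 68 such symbols. Of these, 64 reached at least 1 TPM (a measure of a transcript's share in its library, corrected for length) in at least 2 of 12 libraries, as did 11152 genes in all, which were tested. The 64 members were 9 acetyltransferases, 16 deacetylases, 17 lysine demethylases and 22 methyltransferases. Hdac9, Hdac11 and Kdm4d reached 1 TPM in 0 libraries and Setd4 in 1 library, and these 4 were not tested.

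Histone acetyltransferases place acetyl groups on lysines of the histone tails, which opens chromatin and is read by bromodomain proteins, and deacetylases take them off. Lysine methyltransferases and demethylases write and erase methyl marks that go with active or silent genes, depending on the residue. Several of these enzymes are mutated, fused or used as drug targets in acute myeloid leukemia, and AML1-ETO, the fusion from which AE9a derives, is known to bind corepressors that carry histone deacetylases. TET2 oxidises 5-methylcytosine.

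The cells were NRAS/AE9a leukemic cells from the mouse, labelled as AML cells. By their name they carry NRAS and AE9a, a short form of AML1-ETO, in both genotypes. Some libraries came from Tet2 KO cells, also called Tet2-null in the design, and the rest from WT cells. Both were grown in RPMI medium with murine SCF, IL-3, IL-6, G418 and puromycin, and both received 5 µg/ml actinomycin D, an inhibitor of transcription, for 0, 4 or 8 h. Each of the 6 groups had 2 libraries. The labels name a single line and no second line of either genotype, so Tet2 loss and any other difference between the KO and WT cells cannot be told apart. Whether the paired libraries of a group were separate cultures is not said, so the p-values rest on a spread between libraries that may be only technical.

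Tet2 itself had 10.19 and 10.16 TPM in KO cells at 0 h, against 13.05 and 16.03 TPM in WT cells, a log2 change of -0.47 ± 0.13 (SE, n = 2 each, limma adjusted p = 0.0167). The deleted part of Tet2 is not given in the sources used here, so a transcript that is still counted checks the labels only in part. All 13 markers of myeloid precursors were tested, with summed levels of 1629 to 4068 TPM. Single markers differed in both directions at 0 h: Mpo had 145.55 and 137.27 TPM in KO cells and 28.48 and 33.53 TPM in WT cells, and Csf1r 61.61 and 62.42 TPM in KO cells and 150.28 and 183.7 TPM in WT cells. B cell markers summed to at most 1.02 TPM with Pax5 and Ebf1 at 0 in every library, and Cd3d, Cd3g and Ncr1 of 7 T and NK cell markers and Hbb-bs of 6 erythroid markers were at 0 as well. The erythroid list summed to 0.21 to 7.43 TPM in KO libraries and 1.46 to 7.5 TPM in WT libraries, mostly from Hba-a1. The T and NK cell list summed to 9.24 to 29.4 TPM in KO libraries and 1.85 to 12.2 TPM in WT libraries, nearly all of it from Nkg7. The 6 markers of stroma and endothelium summed to 143.69 to 162.97 TPM in KO libraries and 59.73 to 160.26 TPM in WT libraries, nearly all of it from Pecam1. The 10 most abundant genes took 13.4 to 16.5% of all TPM in KO libraries and 17.8 to 25.6% in WT libraries, and the part of these markers and genes in the differences between genotypes was not tested. The depth of sequencing is unknown, since TPM are shares of a library, and in bulk RNA fewer cells of a type and less RNA per cell cannot be told apart.

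Before actinomycin D the members were expressed at a median of 19.9 TPM in KO cells and 18.9 TPM in WT cells (mean of 2 libraries per gene). They spanned about the same range in both, with 54 members above 10 TPM in KO cells and 52 in WT cells. Hdac1, a class I deacetylase of the Sin3, NuRD and CoREST complexes, had the highest mean, with 137.99 and 134.95 TPM in KO cells and 136.23 and 152.82 TPM in WT cells. Kmt5a, which places the single methyl group of H4K20, had 139.19 and 133.16 TPM in KO cells and 133.19 and 153.34 TPM in WT cells, close to Hdac1. The libraries of the genotypes overlapped for both genes. At the other end was Setdb2-phf11c, a row named as a readthrough of 2 genes, with means of 1.44 TPM in KO cells and 1.72 TPM in WT cells.

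Among the acetyltransferases, Kat2a (GCN5, the catalytic subunit of SAGA) had a mean of 46.02 TPM in KO cells and 41.5 TPM in WT cells at 0 h, while its close relative Kat2b (PCAF) had 13.3 TPM in KO and 13.8 TPM in WT. Ep300 and Crebbp, the paired coactivators p300 and CBP, had 36.7 and 14.97 TPM in KO cells, against 44.9 and 18.1 TPM in WT cells. Of the MYST family, Kat6a (MOZ, a fusion partner in myeloid leukemia) had 20.9 TPM in KO and 22.97 TPM in WT, and its relative Kat6b only 3.78 TPM in KO and 3.77 TPM in WT. Kat5 (TIP60), Kat7 (HBO1) and Kat8 (MOF, the enzyme of H4K16 acetylation) stood at 27.6, 34.7 and 19.2 TPM in KO cells and 29.8, 32.9 and 18.6 TPM in WT cells.

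The deacetylases were led by class I. After Hdac1 came Hdac2, its partner in the same complexes, with 85.64 and 87.03 TPM in KO cells and 64.15 and 76.4 TPM in WT cells. Hdac3, the deacetylase of the NCoR and SMRT corepressors, had 60.34 and 59.48 TPM in KO and 51.08 and 52.96 TPM in WT. For Hdac2 and Hdac3 the KO libraries lay above the WT libraries, without passing the test (adjusted p = 0.0659 for Hdac2 and 0.137 for Hdac3, limma). Class II members were lower: Hdac5, Hdac7, Hdac6, Hdac10 and Hdac4 had means of 26.1, 16.02, 10.4, 8.06 and 6.96 TPM in KO cells, against 27.9, 13.04, 8.91, 8.55 and 9.5 TPM in WT cells. Hdac8, a class I enzyme that acts on cohesin, had 7.57 TPM in KO and 6.26 TPM in WT.

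Of the sirtuins, which need NAD+, the nucleolar Sirt7 and the largely cytoplasmic Sirt2 were the most abundant, at 58.3 and 51.2 TPM in KO cells and 68.1 and 57.6 TPM in WT cells. The nuclear Sirt1 and Sirt6 had 17.1 and 16.8 TPM in KO and 17.5 and 17.7 TPM in WT. Mitochondrial sirtuins act on proteins other than histones for the most part, and of these Sirt4 and Sirt5 had 3.47 and 5.67 TPM in KO cells and 4.68 and 5.42 TPM in WT cells. Sirt3, the main mitochondrial deacetylase, is taken up with the differences between genotypes.

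Among the demethylases, Kdm1a (LSD1, a drug target in myeloid leukemia) had 38.5 TPM in KO cells and 33.1 TPM in WT cells, and its relative Kdm1b 7.86 TPM in KO and 6.62 TPM in WT. The CpG-binding Kdm2a and Kdm2b had 31.01 and 21.02 TPM in KO and 31.4 and 16.4 TPM in WT. Kdm3a and Kdm3b, erasers of H3K9 methylation, had 22.2 and 24.3 TPM in KO and 22.99 and 27.7 TPM in WT. Kdm4a, Kdm4b and Kdm4c, which act on H3K9 and H3K36, had 33.4, 10.1 and 13.3 TPM in KO, against 34.99, 10.6 and 14.1 TPM in WT. The H3K4 demethylases Kdm5a, Kdm5b, Kdm5c and the Y-linked Kdm5d had 15.6, 15.2, 23.7 and 10.3 TPM in KO cells and 14.01, 11.02, 22.1 and 10.5 TPM in WT cells. Kdm6a (UTX) and Kdm6b (JMJD3), which erase the H3K27 marks of EZH2, had 13.1 and 11.2 TPM in KO and 12.3 and 15.5 TPM in WT. Kdm8, which is better known as a hydroxylase, had 7.95 TPM in KO and 8.12 TPM in WT.

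Of the methyltransferases, the catalytic subunits of Polycomb repressive complex 2, Ezh2 and Ezh1, had 46.1 and 18.1 TPM in KO cells and 37.1 and 16.6 TPM in WT cells. Of the H3K4 enzymes of the COMPASS group, Kmt2a (MLL1), Kmt2b, Kmt2c and Kmt2d had 13.2, 16.96, 11.1 and 20.6 TPM in KO and 13.4, 19.2, 11.4 and 26.4 TPM in WT, and Setd1a and Setd1b had 30.7 and 14.04 TPM in KO and 29.6 and 16.9 TPM in WT. The H3K36 enzymes Setd2 and Nsd1 had 29.2 and 27.02 TPM in KO and 29.8 and 24.2 TPM in WT, and Dot1l, which methylates H3K79 and is a dependency of MLL-rearranged leukemia, 29.5 TPM in KO and 27.6 TPM in WT. Setdb1 and Setdb2, of the H3K9 group, had 25.8 and 7.36 TPM in KO and 25.1 and 8.53 TPM in WT. Kmt5b and Kmt5c, which add further methyl groups to H4K20, had 11.8 and 38.6 TPM in KO and 12.7 and 40.9 TPM in WT. Kmt2e and Setd5, SET-domain proteins whose own activity is disputed, had 24.2 and 45.7 TPM in KO and 28.2 and 43.9 TPM in WT. Setd3, a methyltransferase of actin, had 64.7 TPM in KO and 62.9 TPM in WT, and Setd7, which methylates H3K4 and many other proteins, 37.3 TPM in KO and 31.1 TPM in WT.

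For 10 members the counts may hold reads of another expressed gene, since their exons overlap it in the annotation. These are Hdac7, Kat5, Kdm1b, Kdm2b, Kdm5a, Kmt2e, Setdb1, Sirt2 and Sirt3, with a gene on the opposite strand, and Sirt7, with Mafg on the same strand. Kat2b and Kat6b have named pseudogenes, and Setdb2 shares sequence with its readthrough row, so their levels are uncertain too.

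The first comparison asked which of these enzymes differed between Tet2 KO and WT cells before transcription was blocked. Most did not pass the test. Sirt3 and Setd6 were higher in KO cells, and Kdm7a and Hdac4 were lower. Tests were limma models on log2(TPM + 1) with Benjamini-Hochberg adjustment over all 11152 genes and a threshold of 0.05. These 2 members higher and 2 lower of 64 compare with 14.3% of all tested genes higher and 11.5% lower. The median log2 change of the members was -0.02 with 0.06 over all genes tested.

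Kdm7a, a demethylase of H3K9 and H3K27 that reads H3K4 methylation, had 10.75 and 11.71 TPM in KO cells, against 20.05 and 24.63 TPM in WT cells. Both KO libraries lay below both WT libraries, and the log2 change was -0.93 ± 0.15 (SE, n = 2 each, limma adjusted p = 0.000611). It kept its place after actinomycin D: at 4 h Kdm7a had 3.56 and 4.06 TPM in KO cells and 7.41 and 6.47 TPM in WT cells (log2 change -0.72, adjusted p = 0.00238, limma). At 8 h the values were 3.34 and 2.87 TPM in KO cells and 4.43 and 5.51 TPM in WT cells (log2 change -0.54, adjusted p = 0.00921, limma), and this call was lost without the WT 8 h replicate 2 (adjusted p = 0.0739) or the KO 8 h replicate 2 (adjusted p = 0.0587), and with the 8 h groups fitted alone (adjusted p = 0.0585). In TPM, Kdm7a was the only member lower in KO cells past the threshold at all 3 times.

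Sirt3 had 22.64 and 24.71 TPM in KO cells, against 13.69 and 9.67 TPM in WT cells. The groups did not overlap, with a log2 change of 0.98 ± 0.17 (SE, n = 2 each, limma adjusted p = 0.00116). It was also higher in KO cells at 4 h, by 0.77 on the log2 scale, and at 8 h, by 1.00 (limma adjusted p = 0.00384 at 4 h and 0.000358 at 8 h). The exons of Sirt3 overlap those of Psmd13 and Ric8a on the opposite strand; Psmd13, a proteasome subunit, had a mean of 132.6 TPM over all libraries. The library kit marks strand, but whether reads were counted by strand is not given in the sources used here, so the level of Sirt3 is uncertain. Psmd13 itself differed between KO and WT cells at 0 h by 0.18 (log2, limma adjusted p = 0.0575) and Ric8a by 0.38 (limma adjusted p = 0.0151).

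Setd6, which methylates the NF-kappaB subunit RelA, had 15.62 and 17.02 TPM in KO cells and 7.72 and 10.51 TPM in WT cells. The log2 change of 0.79 ± 0.19 (SE, n = 2 each, limma adjusted p = 0.00891) was lost without the WT replicate 1 (adjusted p = 0.0943) or the KO replicate 2 (adjusted p = 0.0683). Hdac4, a class IIa deacetylase that shuttles between nucleus and cytoplasm, had 7.08 and 6.83 TPM in KO cells and 8.65 and 10.35 TPM in WT cells. Its log2 change of -0.40 ± 0.13 (SE, n = 2 each, limma adjusted p = 0.0419) lay just past the threshold and was lost in 11 of 20 alternative fits, among them the fit with the replicate number as a block (adjusted p = 0.0544) and the fit without the WT replicate 2 (adjusted p = 0.187). The plot of levels before actinomycin D shows these 4 genes library by library.

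**Figure D1:**
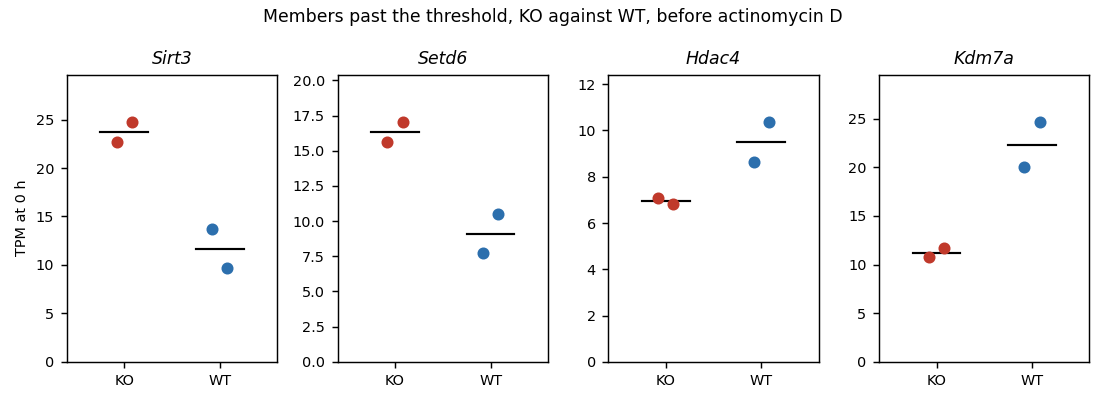
Levels at 0 h of the 4 members that passed the test between KO and WT cells, 1 panel per gene; the vertical axis is TPM, each point is a library (n = 2 per group) and the black line is the mean. KO libraries (left) lie above the WT libraries (right) for Sirt3 and Setd6 and below them for Hdac4 and Kdm7a.

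The enzymes with a known part in myeloid leukemia that were singled out for full values did not pass the test at 0 h. Ezh2 had a log2 change of 0.32 ± 0.15 (adjusted p = 0.151, limma), Kdm1a of 0.21 ± 0.11 (adjusted p = 0.172, limma) and Nsd1 of 0.16 ± 0.12 (adjusted p = 0.36, limma). Kmt2d had 20.6 and 20.63 TPM in KO cells and 23.92 and 28.98 TPM in WT cells, and Kdm6b 11.44 and 11.03 TPM in KO and 13.38 and 17.65 TPM in WT, with adjusted p of 0.0564 for Kmt2d and 0.0628 for Kdm6b (limma). For these 2 genes the KO libraries were below the WT libraries. The log2 changes of Ep300 and Crebbp were -0.28 and -0.26, those of Kat6a and Kat2a -0.13 and 0.15, and those of Kmt2a, Setd2, Dot1l, Kdm6a, Sirt1, Ezh1 and Hdac1 lay between -0.08 for Hdac1 and 0.13 for Ezh1, none of them past the threshold. On the median-ratio scale, which is described with the losses, 3 members were higher and 5 lower in KO cells at 0 h, with 12.3% of all genes higher and 12.8% lower. The calls added there were Hdac2 (higher, adjusted p = 0.0427), Kmt2d (lower, adjusted p = 0.00839), Kdm6b (lower, adjusted p = 0.0251) and Sirt2 (lower).

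The second comparison followed the transcripts after actinomycin D in each genotype. TPM are shares and the labels mention no spiked-in RNA, so a change tells how a transcript fared against the rest of its library, and a stable transcript can gain TPM. Nearly all members fell. At 8 h against 0 h, 59 members were lower and 1 was higher in KO cells, where 75.4% of all genes were lower and 9.54% higher. In WT cells 62 members were lower and 1 was higher, where 80.2% of all genes were lower and 8.48% higher. The median log2 change of the members was -1.55 in KO cells and -1.91 in WT cells, and that of all genes -1.16 in KO cells and -1.40 in WT cells. The mean level at 8 h was a median of 27.6% of the 0 h level in KO cells and 21.9% in WT cells.

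Most of the fall was present by 4 h. At 4 h against 0 h, 56 members were lower and 0 higher in KO cells, where 68.0% of all genes were lower and 4.88% higher, and 57 members were lower and 0 higher in WT cells, where 71.0% of all genes were lower and 6.77% higher. Members had median log2 changes of -1.30 in KO cells and -1.26 in WT cells, against -0.70 and -0.81 over all genes in KO and WT cells. From 4 h on the fall was smaller. At 8 h against 4 h, 24 members were lower and 1 higher in KO cells (43.1% of all genes lower and 8.97% higher), and 45 members were lower and 1 higher in WT cells (54.8% lower and 6.9% higher).

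How many members fell depends on the scale. Median-ratio scaling, which divides each library by the median ratio of its genes to their geometric mean, moved the median change of all genes at 8 h to -0.23 in KO cells and -0.23 in WT cells. On that scale 40 members were lower and 9 higher in KO cells, and 43 were lower and 8 higher in WT cells, where 46.6% of all genes were lower and 33.2% higher in KO cells and 46.5% lower and 33.8% higher in WT cells. At 4 h against 0 h it gave 44 lower and 8 higher in KO cells and 44 lower and 7 higher in WT cells, and at 8 h against 4 h 7 lower and 14 higher in KO cells and 14 lower and 14 higher in WT cells. The shares of all genes were 41.0% lower and 29.4% higher in KO cells and 42.4% lower and 29.96% higher in WT cells at 4 h against 0 h. At 8 h against 4 h they were 21.4% lower and 27.5% higher in KO cells and 22.1% lower and 29.2% higher in WT cells. At 8 h against 0 h Hdac1, Hdac3, Hdac5, Hdac6, Hdac8, Sirt2, Sirt3 and Setd3 were the 8 higher in WT cells, and the same 8 with Hdac10 were the 9 higher in KO cells. Deacetylases made up 8 of the 9 in KO cells and 7 of the 8 in WT cells. Statements on falls refer to TPM unless another scale is named.

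By class, the acetyltransferases lost the most and the deacetylases the least. At 8 h the median level left was 17.97% in KO cells and 11.6% in WT cells for the 9 acetyltransferases, and 58.9% in KO cells and 37.6% in WT cells for the 16 deacetylases. Demethylases kept a median of 21.7% in KO cells and 18.1% in WT cells, and methyltransferases 27.0% in KO cells and 23.6% in WT cells. All 9 acetyltransferases and all 17 demethylases were lower past the threshold in both genotypes. Of the 16 deacetylases, 11 were lower and 1 higher in KO cells and 15 were lower and 1 higher in WT cells. Their median log2 change was -0.60 in KO cells and -1.23 in WT cells, against -1.16 in KO cells and -1.40 in WT cells over all genes.

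**Figure D2:**
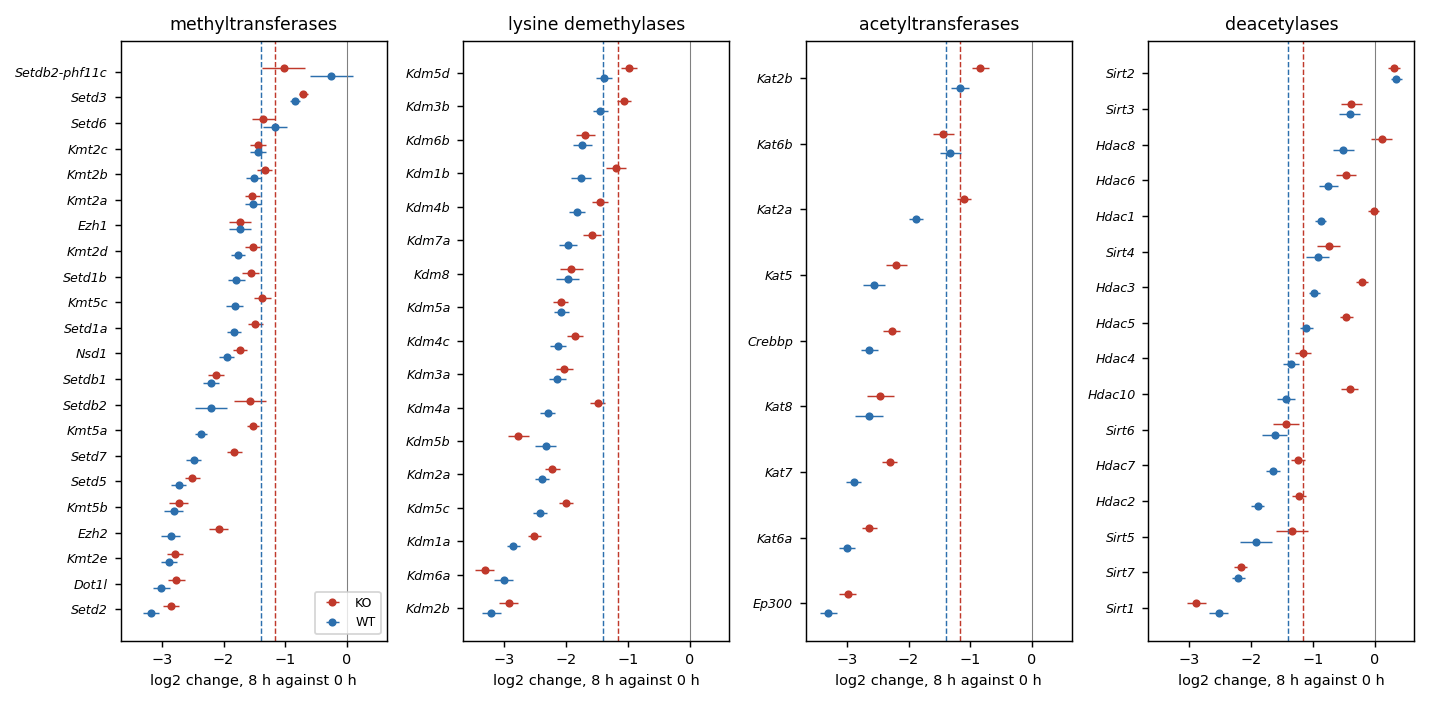
Log2 change at 8 h against 0 h for each of the 64 members in KO cells (red) and WT cells (blue), on the log2(TPM + 1) scale, with SE bars, 1 panel per enzyme class, ordered by the change in WT cells. The dashed lines mark the median of all tested genes in each genotype (-1.16 in KO, -1.40 in WT). Of the 16 deacetylases, 10 lie above that median in KO cells and 9 in WT cells, and Sirt2 lies above 0 in both genotypes.

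Ep300 had 39.27 and 34.15 TPM at 0 h and 3.96 and 3.54 TPM at 8 h in KO cells, and 41.19 and 48.55 TPM at 0 h and 3.24 and 4.09 TPM at 8 h in WT cells. Its log2 change at 8 h was -2.99 ± 0.14 in KO cells and -3.30 ± 0.14 in WT cells (SE, limma adjusted p = 8.06e-10 in KO and 2.60e-10 in WT). In KO cells Kdm6a had 13.05 and 13.11 TPM at 0 h, 0.8 and 0.88 TPM at 4 h and 0.54 and 0.3 TPM at 8 h. In WT cells Kdm6a had 10.98 and 13.62 TPM at 0 h, 0.7 and 0.9 TPM at 4 h and 0.57 and 0.73 TPM at 8 h. It was thus below 1 TPM by 4 h in every library, and its log2 change at 8 h was -3.31 ± 0.15 in KO cells and -3.01 ± 0.15 in WT cells (SE, limma adjusted p = 9.18e-10 in KO and 1.39e-09 in WT). Because the pseudocount of 1 is close to what was left, these values understate the loss, and 3.21% of the 0 h level of Kdm6a remained in KO cells and 5.29% in WT cells.

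Kdm2b, a subunit of the variant Polycomb complex that binds unmethylated CpG, changed by -2.93 ± 0.15 in KO cells and -3.21 ± 0.15 in WT cells (SE, limma adjusted p = 1.71e-09 in KO and 5.81e-10 in WT). Its exons overlap Rnf34 on the opposite strand. Setd2, the enzyme of H3K36 trimethylation, changed by -2.85 ± 0.13 in KO cells and -3.18 ± 0.13 in WT cells (SE, limma adjusted p = 6.56e-10 in KO and 1.85e-10 in WT). Sirt1 had 16.08 and 18.05 TPM at 0 h and 1.43 and 1.45 TPM at 8 h in KO cells, and 16.16 and 18.85 TPM at 0 h and 1.77 and 2.72 TPM at 8 h in WT cells. With a log2 change of -2.89 in KO and -2.52 in WT, it was the deacetylase with the deepest loss in both genotypes. Dot1l, Kat6a, Kmt5b and Kmt2e also lost much, with 11.9, 12.1, 8.02 and 11.04% of their level left in KO cells and 9.25, 8.69, 7.51 and 10.5% in WT cells.

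Sirt2, a deacetylase of tubulin and histones, was the 1 member that gained in both genotypes. It had 51.28 and 51.19 TPM at 0 h and 65.68 and 62.27 TPM at 8 h in KO cells, and 52.16 and 63.11 TPM at 0 h and 70.36 and 77.04 TPM at 8 h in WT cells. The log2 changes were 0.31 ± 0.10 in KO cells and 0.35 ± 0.10 in WT cells (SE, limma adjusted p = 0.00806 in KO and 0.00359 in WT). The KO call was lost without the KO 8 h replicate 1 (adjusted p = 0.0523), and both calls were lost once a trend on transcript length was removed (adjusted p = 0.161 in KO and 0.0677 in WT). Nfkbib, which overlaps exons of Sirt2 on the opposite strand, fell by 1.73 in KO cells and fell by 1.92 in WT cells on the log2 scale.

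Other slow transcripts were Hdac8, Sirt3, Hdac1, Hdac3 and Setd3. Hdac8 had 7.88 and 7.25 TPM at 0 h and 9.29 and 7.36 TPM at 8 h in KO cells, with a change that did not pass (log2 0.12, adjusted p = 0.53, limma). In WT cells it had 5 and 7.52 TPM at 0 h and 4.14 and 3.93 TPM at 8 h (log2 change -0.51, adjusted p = 0.0129, limma), a call lost without the WT 0 h replicate 2 (adjusted p = 0.162) or replicate 2 at 8 h (adjusted p = 0.0509). Sirt3 kept 76.3% of its level in KO cells and 72.6% in WT cells. Its fall passed in WT cells (log2 change -0.40, adjusted p = 0.0406, limma) but not without the WT 0 h replicate 1 (log2 change -0.17, adjusted p = 0.383), nor without either WT library at 8 h (adjusted p = 0.109 and 0.0844). Setd3 kept 60.6% in KO cells and 55.1% in WT cells. The readthrough row Setdb2-phf11c had 0.53 and 2.91 TPM at 0 h and 0.84 and 1.29 TPM at 8 h in WT cells. Its change there did not pass and rests on single libraries (log2 -0.25, adjusted p = 0.504, limma), with -0.93 without the WT 0 h replicate 1 (adjusted p = 0.0099) and 0.42 without the WT 0 h replicate 2 (adjusted p = 0.177).

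Close relatives lost different shares in some pairs and similar ones in others. Ezh1 kept 26.4% in KO cells and 25.6% in WT cells. Ezh2 kept 22.01% in KO and 11.5% in WT, so the gap lay mostly in WT cells. Kat2b kept 52.5% in KO and 40.8% in WT, and Kat2a 45.5% in KO and 25.3% in WT. Kdm6b kept 24.9% in KO and 25.4% in WT, far above the shares of Kdm6a. Kmt5c kept 37.03% in KO and 26.7% in WT, where its relative Kmt5b had under 10% left in both. Ep300 and Crebbp had 10.2 and 15.5% left in KO cells and 8.17 and 11.4% in WT cells. Kmt2a and Kmt2b had 29.6 and 36.2% in KO and 30.1 and 31.7% in WT. Kmt2c and Kmt2d kept 31.2 and 31.5% in KO and 31.2 and 26.7% in WT. For Setd1a and Setd1b the shares were 33.6 and 29.2% in KO and 25.7 and 24.6% in WT. Hdac1 and Hdac2 lay further apart, at 99.1 and 42.3% in KO and 54.3 and 25.9% in WT. Kdm1a and Kdm1b had 15.4 and 37.2% in KO and 11.3 and 18.6% in WT. Kat6a and Kat6b kept 12.1 and 20.8% in KO and 8.69 and 24.0% in WT. Kdm2a and Kdm2b had 18.9 and 9.11% in KO and 16.5 and 5.4% in WT. Differences between relatives were not tested.

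What the fast transcripts have in sequence was described in 3′ untranslated regions (UTRs) of the GENCODE M21 annotation (assembly GRCm38, which mm10 names too), using for each gene the transcript with the longest coding sequence. A 3′ UTR could be read for 63 members, all but Setdb2-phf11c, with a median of 990 nt, and for 10388 of the tested genes, with a median of 930 nt. The sense strand was searched for the AU-rich nonamer TTATTTATT, a core of elements known for short-lived mRNAs. It was found in 3 members (4.76%) and in 7.08% of all tested genes with a UTR. A match is a description of letters and shows no binding.

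The 3 members with the nonamer, Dot1l, Kmt5b and Crebbp, were all among the 15 with the largest loss in WT cells on the log2(TPM + 1) scale, which had a median 3′ UTR of 1188 nt. The 15 with the smallest loss had a median of 507 nt, and 0 of them held it. Longer UTRs hold more matches of any kind, so the number per length was also taken. It was 0.15 matches per 1000 nt in the first set, 0.031 over all 63 members with a UTR and 0.0655 over all genes. The sets were chosen by their loss, so these are descriptions with no test. The sites are printed 5′ to 3′ on the strand of the gene, with the nonamer in capitals and its flanks in lower case, since they are the letters behind these counts.
Dot1l (AU-rich nonamer, chr10:80794412-80794440, plus strand): aaaaatacttTTATTTATTcaaatgcaca
Kmt5b (AU-rich nonamer, chr19:3816214-3816242, plus strand): tcagagcggcTTATTTATTgctttttgtg
Crebbp (AU-rich nonamer, chr16:4082734-4082762, minus strand): tttaaggtttTTATTTATTtatatatatt

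The nonamer starts 908 nt after the stop codon in Dot1l, 635 nt after it in Kmt5b and 1296 nt after it in Crebbp. Ep300, with the largest loss in WT cells on the log2(TPM + 1) scale, held 0 matches, as did Kdm6a, which had the smallest share left.

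Member transcripts were also longer than most, with a median of 4658 nt for 63 members with an annotated length, against 2838 nt over the tested genes. Removing a trend on transcript length moved the median change of members at 8 h to -1.34 in KO cells and -1.71 in WT cells. Over all genes with an annotated length the median was then -1.12 in KO cells and -1.33 in WT cells.

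The third comparison asked whether KO and WT cells differed after actinomycin D. At 4 h, 9 members were higher and 6 lower in KO cells, where 24.9% of all genes were higher and 13.7% lower. Kdm1a (17.71 and 17.21 TPM in KO cells, 9.8 and 9.03 TPM in WT cells), Ezh2 (19.5 and 18.57 TPM in KO cells, 11.49 and 9.42 TPM in WT cells) and Sirt3 had the largest differences upward, with log2 changes of 0.83, 0.81 and 0.77 (limma adjusted p = 0.000104 for Kdm1a, 0.00121 for Ezh2 and 0.00384 for Sirt3). Kdm7a, Kdm6b (3.89 and 3.61 TPM in KO cells, 5.64 and 6.6 TPM in WT cells) and Kmt2d (9.24 and 9.12 TPM in KO cells, 13.38 and 14.07 TPM in WT cells) had the largest downward, with -0.72, -0.58 and -0.53 (limma adjusted p = 0.00238 for Kdm7a, 0.0102 for Kdm6b and 0.00425 for Kmt2d). Both libraries of KO cells lay on 1 side of both WT libraries for each of these 6. The call of Kdm6b was lost without the WT 4 h replicate 2 (adjusted p = 0.0863) or the KO 4 h replicate 2 (adjusted p = 0.062). Fewer members, and fewer of all genes, passed when any 1 of the 4 libraries at 4 h was left out. The group of that library then held 1 library, so these fits cannot tell how firm the count is. Median-ratio scaling gave 5 members higher and 13 lower at 4 h, with 17.1% of all genes higher and 19.96% lower.

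At 8 h, 24 members were higher in KO cells and 1, Kdm7a, was lower, where 37.3% of all genes were higher and 12.1% lower. The share of members higher, 24 of 64, is close to that of all genes and says nothing particular about histone-modifying enzymes. The median log2 change was 0.25 for the members and 0.20 for all genes. The sum of the stroma and endothelium markers also differed at 8 h, with 143.69 and 152.87 TPM in KO cells and 59.73 and 74.95 TPM in WT cells. Pecam1 made up nearly all of it, with 142.26 and 151.03 TPM in KO cells and 57.6 and 72.47 TPM in WT cells. Of that list Pdgfrb was also higher in KO cells at 8 h, while Fn1 and Col1a1 were lower, all at 2.3 TPM or less. On the median-ratio scale 18 members were higher and 16 lower, with 22.2% and 26.5% of all genes higher and lower. Of the 24, 18 stayed higher past the threshold on that scale, and Hdac6, Kdm5d, Kmt5c, Nsd1, Setd1a and Setd6 did not.

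**Figure D3:**
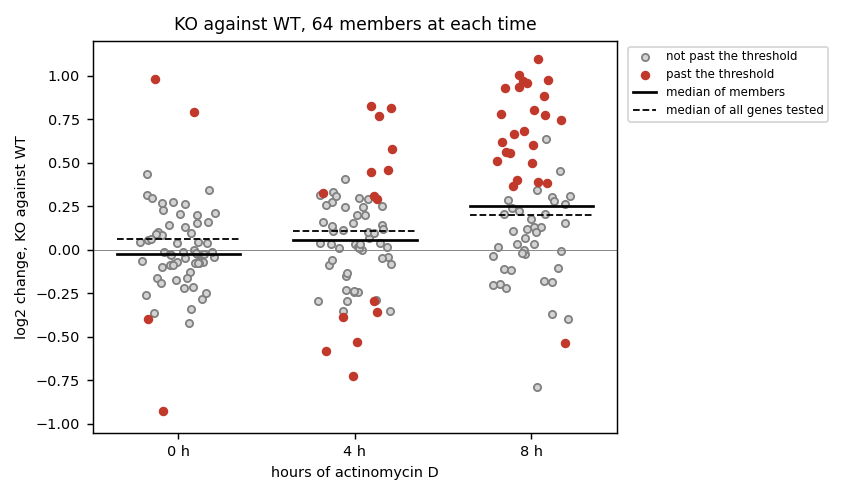
Log2 change in KO against WT cells (vertical axis, log2(TPM + 1) scale) of the 64 members at 0, 4 and 8 h of actinomycin D, each point 1 member, red where the limma adjusted p was under 0.05. Solid bars are the median of the members (-0.02, 0.05 and 0.25 at 0, 4 and 8 h) and dashed bars that of all tested genes (0.06, 0.10 and 0.20).

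Ezh2 showed the largest difference at 8 h, with 9.77 and 10.54 TPM in KO cells and 3.54 and 5.02 TPM in WT cells, a log2 change of 1.09 ± 0.15 (SE, n = 2 each, limma adjusted p = 6.81e-05). Hdac3 had 54.7 and 49.29 TPM in KO and 24.76 and 27.15 TPM in WT, a log2 change of 0.97 ± 0.09 (SE, limma adjusted p = 3.37e-06). By class, 9 of 16 deacetylases, 7 of 22 methyltransferases, 6 of 17 demethylases and 2 of 9 acetyltransferases were higher in KO cells at 8 h. All 4 class I deacetylases, Hdac1, Hdac2, Hdac3 and Hdac8, were among them on both scales.

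Since levels at 8 h also carry differences present at 0 h, the change itself was compared between genotypes. At 4 h, 0 members differed in their change by limma, where 0.0538% of all genes had a higher change in KO cells and 0.296% a lower one. At an unadjusted p under 0.05 (limma) there were 6 of 64 members and 1763 of all 11152 genes. At 8 h, 11 members had a higher change in KO cells and 0 a lower one, where 17.3% of all genes had a higher change and 2.63% a lower one. The share of 11 of 64 is again about that of all genes. Under median-ratio scaling 9 of the 11 remained and Sirt2 had a lower change, with 7.47% of all genes higher and 9.42% lower. The 11 were Hdac10, Hdac1, Hdac3, Hdac2, Hdac5, Kmt5a, Ezh2, Setd7, Kdm4a, Kat2a and Kat7, with 5 of 16 deacetylases, 3 of 22 methyltransferases, 1 of 17 demethylases and 2 of 9 acetyltransferases.

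Hdac10, a class IIb enzyme known as a polyamine deacetylase, had the largest difference. In KO cells it had 8.33 and 7.8 TPM at 0 h, 6.72 and 6.7 TPM at 4 h and 6.48 and 5.29 TPM at 8 h. In WT cells it had 7.88 and 9.23 TPM at 0 h, 6.09 and 4.95 TPM at 4 h and 2.59 and 2.48 TPM at 8 h. The WT libraries at 8 h thus lay well below the KO libraries, while the groups overlapped at 0 h, and the change differed by 1.03 ± 0.20 (log2, SE, limma adjusted p = 0.00446). Hdac1 in KO cells had 144.31 and 161.26 TPM at 4 h and 140.7 and 129.67 TPM at 8 h, around its level at 0 h. In WT cells Hdac1 had 135.73 and 129.47 TPM at 4 h and 74.71 and 82.13 TPM at 8 h, the 8 h libraries both below every other one. Its change was -0.01 in KO cells (adjusted p = 0.877, limma) and -0.87 in WT cells (adjusted p = 5.06e-07, limma), and the difference was 0.86 ± 0.12 (log2, SE, limma adjusted p = 0.000905). On the median-ratio scale Hdac1 rose in both genotypes, by 1.15 in KO cells and 0.60 in WT cells.

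Kmt5a had 48.61 and 44.74 TPM at 8 h in KO cells and 24.28 and 29.74 TPM in WT cells, from levels that overlapped at 0 h. The difference of changes was 0.84 ± 0.14 (log2, SE, limma adjusted p = 0.00239). Kdm4a had 12.78 and 9.94 TPM at 8 h in KO cells and 6.45 and 6.23 TPM in WT cells, with a difference of changes of 0.81 ± 0.17 (log2, SE, limma adjusted p = 0.00746). For Kat2a, 45.5% of the 0 h level was left in KO cells and 25.3% in WT cells, with nearly equal levels at 4 h (32.11 and 29.84 TPM in KO, 27.82 and 29.6 TPM in WT). At 4 h the difference of changes was -0.05 for Kat2a, 0.28 for Hdac1 and 0.09 for Hdac3 (log2), none past the threshold.

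Hdac3 had 57.24 and 55.82 TPM in KO cells and 42.69 and 49.73 TPM in WT cells at 4 h, and its change at 8 h differed by 0.77 (limma adjusted p = 0.00213). Hdac2 differed by 0.67 and Hdac5 by 0.65 (limma adjusted p = 0.0109 for Hdac2 and 0.00986 for Hdac5). Hdac5, a class IIa enzyme, kept 71.8% of its level in KO cells and 44.4% in WT cells. Ezh2 differed by 0.78 (limma adjusted p = 0.023), Setd7 by 0.66 (limma adjusted p = 0.0242) and Kat7 by 0.58 (limma adjusted p = 0.0324). Ezh2 and Kat7 were lost in 7 of 21 alternatives each and Setd7 in 6, mostly with 1 library left out. The group of that library then held 1 library, so those losses cannot tell how firm the calls are. Without the KO 0 h replicate 1 the differences were 0.77, 0.56 and 0.72 for Ezh2, Kat7 and Setd7, and without the WT 0 h replicate 2 0.62, 0.47 and 0.47. Median-ratio scaling lost Ezh2 (limma adjusted p = 0.0568) and Kat7 (limma adjusted p = 0.161). The fit of the compared groups alone lost Kat7 (limma adjusted p = 0.0673) and Setd7 (limma adjusted p = 0.0511), and the fit without a filter lost Ezh2 (limma adjusted p = 0.0567). Hdac5 was lost as well without the KO 0 h replicate 1, with a log2 difference of 0.595, and fewer of all genes passed there too.

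**Figure D4:**
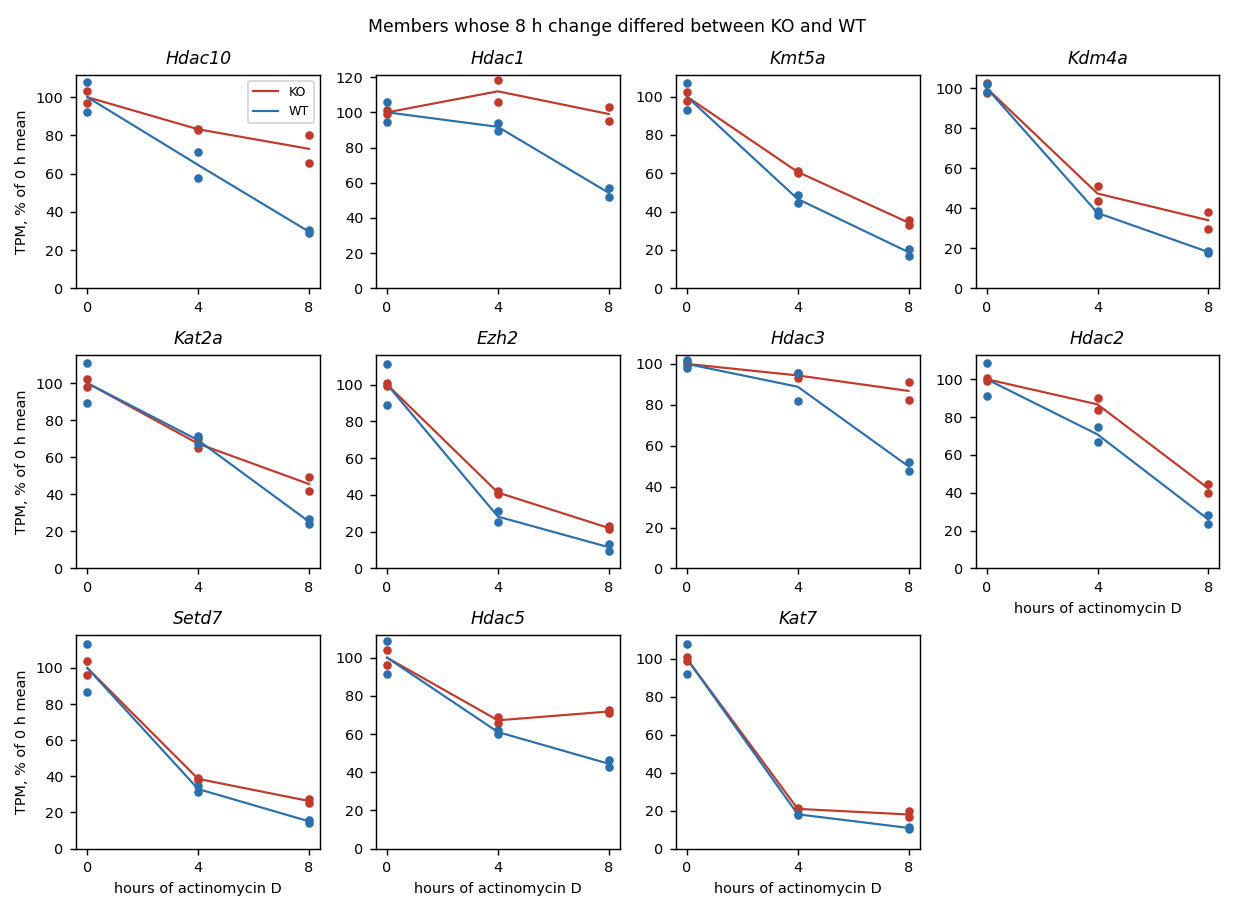
TPM as a percentage of the 0 h mean of the same genotype (vertical axis) against hours of actinomycin D (horizontal axis) for the 11 members whose change at 8 h differed between genotypes; points are libraries (n = 2 per group), lines join the means, KO in red and WT in blue. At 8 h the KO libraries lie above the WT libraries in each panel, from Hdac10 (73.0% left in KO, 29.6% in WT) to Kat7 (17.97% in KO, 10.9% in WT).

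For the other members the difference of changes did not pass. Ezh1, Kmt2c, Kmt2a and Kdm5a had differences of changes of 0.00, 0.00, -0.01 and -0.01 with SE of 0.25, 0.18, 0.18 and 0.17 (log2). The lowest was that of Setdb2-phf11c, at -0.77 (adjusted p = 0.307, limma). Those of Kdm5b, Sirt1 and Kdm6a were below 0, at -0.44, -0.36 and -0.31, and did not pass (adjusted p = 0.22, 0.285 and 0.357, limma). Hdac8, with 110.0% of its level left in KO cells and 64.5% in WT cells, had a difference of 0.62 (adjusted p = 0.088, limma).

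Partners of these enzymes, taken as lists of complex subunits, readers and related enzymes, were mostly lower after actinomycin D too, as were 75.4% of all tested genes in KO cells and 80.2% in WT cells at 8 h. Of 27 subunits of the Polycomb complexes, 26 were lower at 8 h in KO cells and 25 in WT cells, with Eed at a log2 change of -3.13 in KO and -3.28 in WT and Suz12, the other core subunit of the EZH2 complex, at -2.46 in KO and -2.84 in WT. All 13 subunits of the COMPASS and MLL complexes were lower in both genotypes. Among these, Men1 (menin, which tethers MLL1) fell by 3.34 in KO cells and fell by 3.96 in WT cells on the log2 scale. Of 29 subunits of deacetylase corepressor complexes 25 were lower and 1 higher in KO cells and 28 lower and 0 higher in WT cells, with Rcor1 (CoREST) at -2.76 in KO and -3.03 in WT. All 10 tested elongation partners of DOT1L were lower in both genotypes, with Aff1 at -2.82 in KO and -2.99 in WT.

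Of 44 subunits of acetyltransferase complexes, 42 were lower in KO cells and 43 in WT cells at 8 h, led by Taf5l of SAGA at -3.91 in KO and -4.00 in WT. All 17 tested readers of acetylated or methylated lysine were lower in both, including the heterochromatin protein Cbx3 at -2.42 in KO and -2.92 in WT. Of 23 methyltransferases outside the name pattern, 22 were lower in KO cells and 23 in WT cells, and all 8 such demethylases were lower in both. The median-ratio scale left all 8 such demethylases lower in both genotypes and moved the Polycomb list to 18 lower and 5 higher in KO cells and 19 lower and 6 higher in WT cells.

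Between genotypes before actinomycin D, few genes of the partner lists passed the test. Counts of higher and lower genes were 2 and 0 of 27 for Polycomb, 2 and 0 of 13 for COMPASS, 0 and 0 of 10 for DOT1L partners, 2 and 0 of 29 for corepressors, 5 and 0 of 44 for acetyltransferase complexes, 4 and 0 of 23 for other methyltransferases, 0 and 0 of 8 for other demethylases and 2 and 0 of 17 for readers, where 14.3% of all genes were higher and 11.5% lower. Chd3, a helicase of the NuRD deacetylase complex, was higher in KO cells by 0.87 ± 0.11 (log2, SE, limma adjusted p = 0.00013), and Prmt1, the main arginine methyltransferase, by 0.46 ± 0.08 (limma adjusted p = 0.00115). In the change at 8 h, genes higher and lower in KO cells were 8 and 0 of 29 for corepressors, 5 and 0 of 13 for COMPASS, 4 and 1 of 27 for Polycomb, 1 and 0 of 10 for DOT1L partners, 3 and 0 of 44 for acetyltransferase complexes, 8 and 0 of 23 for other methyltransferases, 0 and 0 of 8 for other demethylases and 3 and 1 of 17 for readers, where 17.3% of all genes were higher and 2.63% lower. With median-ratio scaling the corepressors had 3 higher and 2 lower and COMPASS 3 higher and 0 lower, and Polycomb had 2 higher and 2 lower. The other lists then had 3 higher and 1 lower for other methyltransferases, 1 and 1 for acetyltransferase complexes and for readers, 0 and 1 for other demethylases and 0 and 0 for DOT1L partners. At 0 h that scaling gave 2 higher and 2 lower for Polycomb, 3 and 1 for corepressors and 0 and 1 for other demethylases, with 0 lower in the other 5 lists. Mta1 and Mta2, which join HDAC1 and HDAC2 in NuRD, had differences of changes of 0.98 ± 0.13 and 0.98 ± 0.15 (log2, SE, limma adjusted p = 0.000777 for Mta1 and 0.00129 for Mta2). Rbbp7 and Rbbp4, histone chaperones shared by NuRD and the EZH2 complex, differed by 0.71 ± 0.09 and 0.67 ± 0.09 (log2, SE, limma adjusted p = 0.000723 for Rbbp7 and 0.000852 for Rbbp4), and Wdr5 and Hcfc1 of COMPASS by 0.72 ± 0.11 and 0.80 ± 0.12 (limma adjusted p = 0.00145 for Wdr5 and 0.00133 for Hcfc1).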

How the data were processed

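RNA was measured by paired-end RNA-seq in 12 libraries, with 2 in each of 6 groups of genotype and time, grouped by the sample titles. RNA came from TRIzol lysis and was sequenced after preparation with a strand-specific mRNA kit, per the labels' protocols. STAR, RSEM and mm10 are named in the submitters' processing notes, without versions. Neither the annotation nor any use of strand in counting is given there. The authors deposited TPM, shares of a library corrected for gene length; each column sums to 1000000 within rounding, so depth is unknown and no counting interval can be given. Of the rows, 27 have a name that was turned into a date.

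TPM were used on the log2(TPM + 1) scale, which understates changes of low genes. Genes that reached 1 TPM in 2 or more libraries were fitted together in limma 3.58.1 (R 4.3.3), with a mean for each group, all 12 libraries in the fit, 6 residual degrees of freedom and a trended empirical Bayes spread. Adjusted p are Benjamini-Hochberg values over all 11152 genes with a threshold of 0.05. The fit was tested on simulated data. Alternatives were median-ratio scaling, other filters and pseudocounts, no trend, the compared groups alone, the replicate number as a block and leaving out each library; removal of a trend on transcript length was chosen after seeing the data. Lengths, positions and UTRs came from GENCODE M21 by symbol; 98.4% of members and 97.3% of tested genes matched.

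The members and lists were chosen with earlier results of these data known. Full statistics are given for the 4 largest changes each way past the threshold without overlap of libraries at 0 h and in the difference of changes at 8 h, for the 4 largest and 4 smallest losses at 8 h in each genotype, for up to 3 each way elsewhere, and for enzymes known in myeloid leukemia; of each partner list, up to 3 genes with the smallest p were eligible. Some results on other genes and sequence motifs are not reported here.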

Additional observations from a re-analysis of the deposited data

Results flagged for a closer look

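For 11 members the change at 8 h of actinomycin D differed between Tet2 KO and WT cells by a limma test of the difference itself, each with a higher change in KO cells. On the log2 scale the differences were 1.03 for Hdac10, 0.86 for Hdac1, 0.77 for Hdac3, 0.67 for Hdac2 and 0.65 for Hdac5 among the deacetylases. They were 0.84 for Kmt5a, 0.78 for Ezh2 and 0.66 for Setd7 among the methyltransferases, 0.81 for the demethylase Kdm4a, and 0.78 for Kat2a and 0.58 for Kat7 among the acetyltransferases. All tested genes had a median difference of 0.18, and 17.3% of them had a higher change in KO cells. On the median-ratio scale 9 of the 11 remained past the threshold, all but Ezh2 (adjusted p = 0.0568) and Kat7 (adjusted p = 0.161), and Sirt2 was added with a lower change in KO cells.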

How the results depend on the processing

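Of 101 values named for comparisons and single members, 74 kept their side of the threshold in every alternative that gave a value for them, at most 21 each. Some of these 74 were not past the threshold and changed sign in an alternative by less than their SE. Setd2 in KO against WT cells at 0 h, for example, ran from -0.14 to 0.09. Median-ratio scaling mattered most. On that scale 8 members passed between KO and WT cells at 0 h instead of 4, and 28 in WT cells at 8 h against 4 h instead of 46. The counts of all 11152 genes moved too. At 0 h 1370 were higher and 1423 lower, instead of 1593 and 1278. In WT cells at 8 h against 4 h 3257 were higher and 2467 lower, instead of 769 and 6115. The median log2 change of the members became -0.021 in KO against WT cells at 8 h, and 0.047 for the difference of changes at 8 h. In KO cells it became -0.65 at 4 h against 0 h, -0.57 at 8 h against 0 h and 0.12 at 8 h against 4 h, and in WT cells -0.55, -0.62 and 0.038 for these comparisons in the same order. Changes at 8 h turned round for Hdac1 (1.15 in KO, 0.60 in WT), Hdac3 (0.95 in KO, 0.47 in WT), Kat2a in KO cells (0.034), and Sirt3 (0.95) and Hdac8 (0.74) in WT cells. This follows from the scaling, which raises the changes at 8 h, by less for genes of low TPM.

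A pseudocount of 0.1 moved the median change at 8 h to -1.84 in KO cells and -2.16 in WT cells, and at 4 h to -1.42 in WT cells. A pseudocount of 0.5 moved it to -1.68 in KO cells and -2.03 in WT cells at 8 h. Removal of the length trend gave -1.34 in KO cells and -1.71 in WT cells at 8 h, and -0.96 in KO cells and -1.06 in WT cells at 4 h. The medians of all genes were then -1.12 in KO cells and -1.33 in WT cells at 8 h, and -0.70 in KO cells and -0.79 in WT cells at 4 h. Leaving out single libraries gave 2 to 7 members at 0 h, 6 to 18 at 4 h and 21 to 31 at 8 h in KO against WT cells, 15 to 28 in KO cells at 8 h against 4 h (the lowest without the KO 4 h replicate 1), 7 to 15 for the difference of changes at 8 h, and a median change in WT cells at 8 h of -2.03 to -1.80.

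Same-numbered libraries did not deviate together: 0 of 15 pairs of groups had a correlation of deviations above 0.1 (-0.08 to 0.05), so the numbers were not taken as pairs. With the replicate block 3 members passed at 0 h, 14 at 4 h and 25 at 8 h between KO and WT cells, and 11 for the difference of changes at 8 h. With 2 libraries per group, small differences could be missed, and low members such as Kdm6a after actinomycin D lie near the pseudocount. The depth behind each value is unknown.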

Other observations

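A list of 20 housekeeping transcripts known to be long-lived gives a scale for the losses. In TPM, 11 of them were higher and 8 lower at 8 h against 0 h in KO cells, and 7 higher and 10 lower in WT cells, with median log2 changes of 0.26 in KO cells and -0.12 in WT cells. On the median-ratio scale the medians were 1.43 in KO cells and 1.36 in WT cells. The histone-modifying enzymes had medians of -1.55 in KO cells and -1.91 in WT cells in TPM, and -0.57 in KO cells and -0.62 in WT cells on the median-ratio scale.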
